A study of Mus musculus with 18 samples.

Results

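Mouse bone marrow cells carrying the fusion AFF1-NUTM1 (AFFN1) were compared with control cells on day 14, in all measured genes. The comparison set 3 AFFN1 against 3 control libraries, 6 of the 18 RNA-seq libraries of the series. The labels number the libraries of a group 1 to 3, and the descriptions give a control and an AFFN1 library of equal number the same code. The series measured poly(A) RNA in control cells, in AFFN1 cells and in cells with BRD9-NUTM1 (BN1), each on day 6 and day 14 with 3 libraries a group. The day 14 AFFN1 and control groups were both sorted bone marrow cells of the strain C57BL/6, positive for the leukocyte surface allele CD45.2, and differed in the labels only by the AFF1-NUTM1 genotype. The labels call the cells iLS, and do not say what the days were counted from, how the fusion was introduced, or whether the replicates came from separate animals or cultures. The day 14 model was fitted on all 9 libraries of that day, so the BN1 libraries also entered its filter, block and spread. The spread that the p-values below are set against is that among the libraries of each fit, and it may be technical.

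NUTM1 is normally active in the testis and encodes a protein that binds histone acetyltransferases, and its fusions with other genes occur in NUT carcinoma and in infant B-cell leukemia. AFF1 encodes a scaffold of the super elongation complex, which helps RNA polymerase II past promoter-proximal pausing, and is a frequent partner of KMT2A in leukemia. Early B-cell precursors in the bone marrow are known for the receptor of interleukin 7, the surrogate light chain and the enzymes that recombine immunoglobulin genes.

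The 9 day 14 libraries held total counts, in 1e6, of 17.8 to 18.4. Levels are given as counts per 1e6 counts (CPM), scaled between libraries by TMM. Control 1 and AFFN1 1 were far from the other 7 libraries of day 14 along the first principal component (37.2% of the variance), at -58.2 and -51.6 against 1.16 to 36.6. Their summed level of the 21 measured interferon response genes was 1445 and 1367 CPM, against 216 to 306 CPM in control and AFFN1 libraries 2 and 3. Control 3 and AFFN1 3 had the highest share of counts from mitochondrially encoded genes, at 8.32 and 9.32% against 5.25 to 6.75% in the other libraries. The BN1 libraries did not stand apart by number in these 3 measures: BN1 1 was at 14.5 on the component, the 3 BN1 libraries summed to 257 to 282 CPM for the interferon genes, and BN1 3 had 6.49% mitochondrial counts. The number was a block in the model because libraries of all 3 groups with the same number share a code and deviated together, with correlations of 0.532 to 0.614 between AFFN1 and control and of 0.291 or more with BN1.

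Mouse Nutm1 had 0 reads in the 3 AFFN1 libraries and 2 in the 3 control libraries, a count that does not check the label, because the labels do not give the species of the NUTM1 part. Aff1 had 8873 reads in AFFN1 and 9157 in control, and its log2 fold change of -0.06 (SE 0.11, adjusted p = 0.871) changed sign without libraries numbered 3. Brd9, the chromatin remodelling subunit fused in BN1, had a log2 fold change of 0.04 (SE 0.14, adjusted p = 0.936). The labelled bone marrow origin was checked with marker genes. The early B-cell genes were high in every library: the 20 pro-B and pre-B genes summed to 7936, 13140 and 13885 CPM in control and to 9947, 14876 and 18358 CPM in AFFN1. Of 17 T-cell markers, the defining genes Cd3e, Cd8a, Cd8b1 and Bcl11b had 0 reads in all 9 libraries, and the whole list summed to 195 to 273 CPM in control and 232 to 259 CPM in AFFN1. Of 19 myeloid markers, the granule gene Mpo had 1 read in AFFN1 and 1 in control, and Camp had 0 reads in all 9 libraries. The summed level of the whole myeloid list was higher in AFFN1 within each number, and the groups barely failed to overlap, at 77.9, 88.0 and 178 CPM against 47.3, 76.7 and 77.8 CPM in control, and at 115 to 155 CPM in BN1. All 6 of its 19 members that passed the filter on low counts had positive log2 fold changes, with a median of 0.62. A gene could pass this filter through the group where it was high, so these signs are no test. Of the 6, 0 were called by edgeR. At an unadjusted p under 0.05 there were 2 of the 6, where the share over all genes tested was 12.2%. DESeq2 called 1 of the 6, and 293 of all 11657 genes tested. The part of myeloid cells in the differences below was not tested.

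Of 11657 genes tested, 65 (0.558%) were called between AFFN1 and control at an adjusted p under 0.05 by edgeR's quasi-likelihood test with Benjamini-Hochberg adjustment. In AFFN1, 37 of them were higher (0.317% of genes tested) and 28 lower (0.24%). The 37 higher genes differed by 1.53- to 59.1-fold, with a median of 2.70-fold, and the 28 lower genes by 1.56- to 278-fold, with a median of 2.60-fold. All 65 moved the same way in each of the 3 numbered pairs. In 55 of the 65, no AFFN1 library overlapped a control library, and 1110 of all tested genes (9.52%) had such groups. The 65 were selected by their difference in these same libraries. Neither their direction within pairs nor their lack of overlap is therefore a separate test. In the other 10, among them Kdm5b, H1f0, Lif and Mt2, the difference was seen within numbers but the groups overlapped. Of the 65 genes, 63 were protein coding. At an unadjusted p under 0.05 the count was 1422 genes (12.2%).

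**Figure D1:**
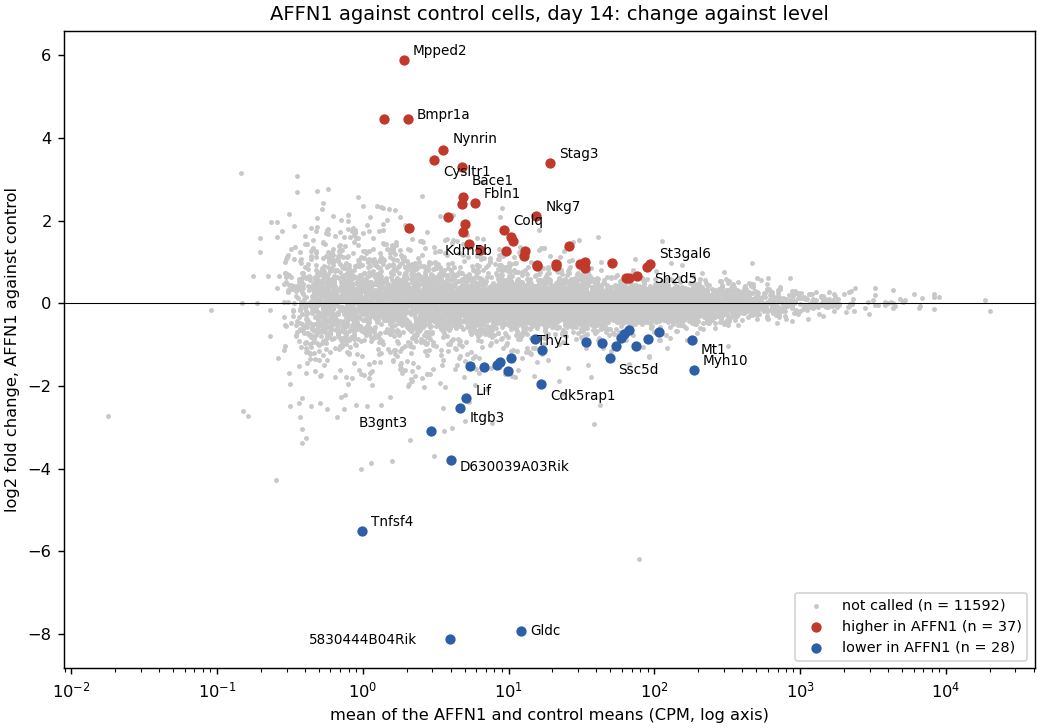
Each point is 1 of 11657 tested genes, with the mean of the AFFN1 and control means in CPM on a log axis and the log2 fold change of AFFN1 against control on day 14; red marks the 37 called higher genes and blue the 28 called lower ones. Gldc stands at -7.93 with a control mean of 24.4 CPM, below all other called genes of its level.

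How many genes were called depended on the block and on the libraries numbered 3. Without the block 5 genes were called, which were Bmpr1a, Bace1, Ppp1r32, B4galt4 and Gldc. Without number 1 the count was 263, with 62 of the 65 among them; without number 2 it was 25, with 16; and without number 3, or without control 3 alone, it was 1, which was Gldc. Leaving out AFFN1 3 alone left 10 calls, and leaving out control 2 alone left 32. DESeq2 with the same block called 293 genes, all 65 among them. The 6 control and AFFN1 libraries alone gave 88 calls, with 54 of the 65 among them. Cdk5rap1, Ptger4, Smad3 and Mt1, described below, were not called there (adjusted p = 0.0504, 0.0807, 0.0504 and 0.05003 by edgeR). All 65 kept their sign in each of the 17 other settings.

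**Figure D2:**
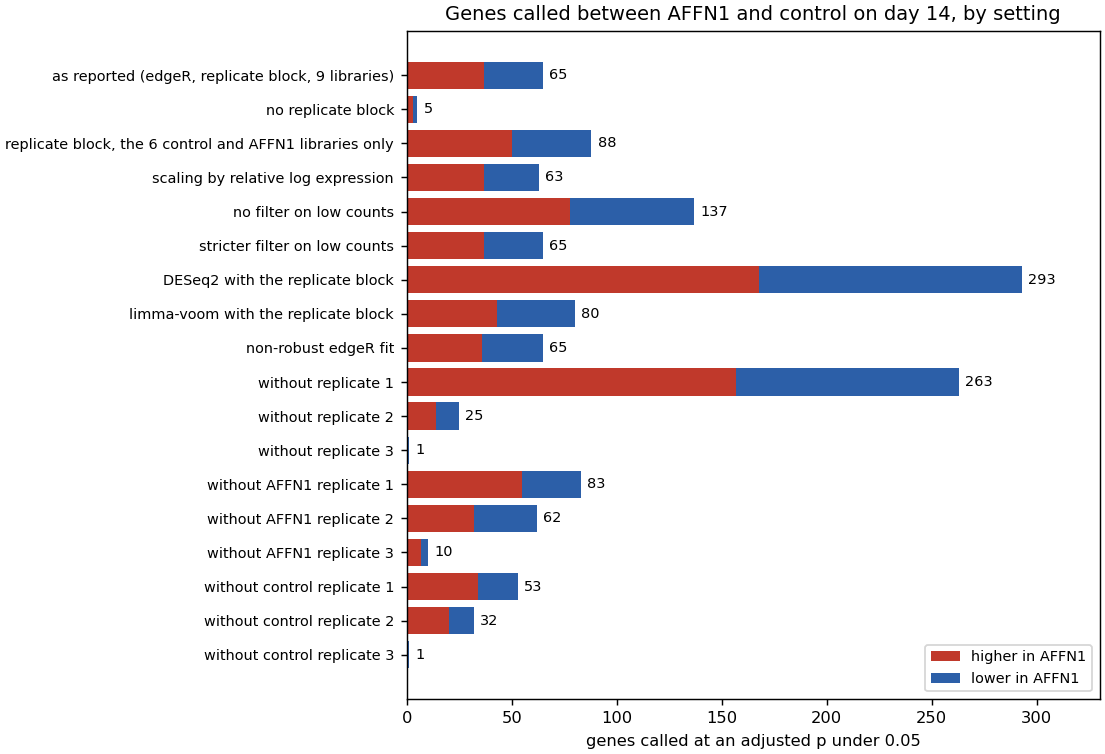
Bars give the number of genes called between AFFN1 and control on day 14 under each setting, from 0, split into higher (red) and lower (blue) in AFFN1. The count as reported is 65, and it ranges from 1 without number 3 to 293 with DESeq2.

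Gldc showed the clearest difference. It encodes the glycine decarboxylase of the mitochondrial glycine cleavage system, which passes a carbon unit from glycine to folate (ENSMUSG00000024827; mm10 chromosome 19, 30098447 to 30175429, minus strand). AFFN1 libraries 1, 2 and 3 had 0.107, 0.108 and 0.0600 CPM, and control libraries 1, 2 and 3 had 30.9, 14.1 and 28.3 CPM. The AFFN1 libraries held 5 reads in all and the control libraries 1307, so the groups were far apart. The level was 243-fold lower in AFFN1 (log2 fold change -7.93, SE 0.37, adjusted p = 6.40e-06), and Gldc was called in all 17 other settings, with log2 fold changes of -8.40 to -7.57. BN1 cells on day 14 had 0.646, 0.108 and 0.651 CPM, also below every control library. In bulk RNA, fewer cells with the transcript and less transcript per cell cannot be told apart.

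Promoters are shown for 3 of the 5 genes that were also called without the block, those whose 250 bases before the RefSeq start (GRCm38.p6) touched no gene of the GENCODE annotation: Gldc, which fell (chr19:30175442-30175691, minus strand), Ppp1r32, which rose (chr19:10482929-10483178, minus strand), and B4galt4, which fell (chr16:38742009-38742258, plus strand). Each is written 5′ to 3′ on the strand of its gene, and capitals mark every match, on either strand, to the GC box GGGCGG or the CCAAT box CCAAT.
Gldc: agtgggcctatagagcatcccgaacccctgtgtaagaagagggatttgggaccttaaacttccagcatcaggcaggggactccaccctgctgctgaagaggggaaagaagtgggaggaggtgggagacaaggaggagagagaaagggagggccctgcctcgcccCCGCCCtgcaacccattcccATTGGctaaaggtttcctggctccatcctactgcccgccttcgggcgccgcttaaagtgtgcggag
Ppp1r32: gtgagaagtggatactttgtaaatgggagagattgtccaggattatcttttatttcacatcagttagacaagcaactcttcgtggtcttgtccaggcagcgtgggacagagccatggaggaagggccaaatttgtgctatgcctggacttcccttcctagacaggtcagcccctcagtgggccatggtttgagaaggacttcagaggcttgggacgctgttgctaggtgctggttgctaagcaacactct
B4galt4: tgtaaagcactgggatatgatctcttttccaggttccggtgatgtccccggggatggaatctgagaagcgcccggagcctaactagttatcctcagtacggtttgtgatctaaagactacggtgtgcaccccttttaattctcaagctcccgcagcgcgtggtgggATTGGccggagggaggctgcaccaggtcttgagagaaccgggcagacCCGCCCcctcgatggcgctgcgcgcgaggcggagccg
The windows of the lowered genes Gldc and B4galt4 each held 1 GC box and 1 CCAAT box, and that of Ppp1r32 held neither. Of 32851 RefSeq promoter windows of the same length, 32.7% held the GC box and 33.8% the CCAAT box. The TATA box TATAAA (12.4% of windows), the E-box CAGCTG (13% of windows) and the MEIS motif TGACAG (15.9% of windows), also searched on both strands, were in none of the 3. CpG pairs numbered 8 in Gldc, 3 in Ppp1r32 and 19 in B4galt4. A match describes the letters only, not a bound site.

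Gldc is 1 of 16 tested genes of serine, glycine and one-carbon metabolism, of which 2 were called, both lower (all genes tested: 0.558% called, 0.24% lower), and 15 had a negative log2 fold change. The other called member was Tyms, thymidylate synthase, at 46.4, 58.6 and 35.8 CPM in AFFN1 and 84.9, 82.8 and 65.7 CPM in control, without overlap (log2 fold change -0.75, SE 0.11, adjusted p = 0.0230). The median log2 fold change of the list was -0.32, against -0.02 over all tested genes. Gcsh, the carrier protein of the glycine cleavage system, had -0.37 (SE 0.15, adjusted p = 0.382), and Mthfd2, a mitochondrial folate enzyme, had -0.73 (SE 0.24, adjusted p = 0.290). Slc1a5, a transporter of neutral amino acids, was the positive member at 0.28 (adjusted p = 0.409). These 3 genes were picked after their values were seen.

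Ccnd1, the gene of cyclin D1, had a larger difference than most called genes and was not called, and it was picked after its values were seen. Its level was 2.36, 2.01 and 0.660 CPM in AFFN1 and 30.7, 220 and 218 CPM in control, with 92 against 8290 reads. The groups did not overlap, and control 1 was far below the other control libraries. The log2 fold change was -6.19 (SE 0.93, unadjusted p = 0.00127, adjusted p = 0.101 by edgeR). Without control 1 the adjusted p was 8.21e-05, without number 1 it was 2.06e-11, with DESeq2 1.83e-10 and with limma-voom 0.0298, while without number 3 it was 0.623. The 3 BN1 libraries had 1.02, 1.14 and 1.03 CPM. None of the other 14 tested D cyclins, CDKs, CDK inhibitors and retinoblastoma family genes was called: Ccnd2, Ccnd3 and Cdk6 had log2 fold changes of -0.34, -0.01 and 0.24. Not all others were as close to no change, and the highest value of the list was 1.57. At an unadjusted p under 0.05 by edgeR, 4 of its 15 tested members were lower, Ccnd1 among them, and 1 was higher. The share over all genes tested was 12.2%.

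Among the genes that rose, Stag3 had the highest level of the 12 largest changes in AFFN1. It encodes a cohesin subunit of meiotic cells (mm10 chromosome 5, 138280240 to 138312393, plus strand). Its level was 50.6, 24.9 and 29.9 CPM in AFFN1 libraries 1 to 3 and 6.26, 1.89 and 2.21 CPM in control, 10.4-fold higher (log2 fold change 3.38, SE 0.46, adjusted p = 0.0453). Nynrin, a gene with a domain derived from a retroviral integrase (mm10 chromosome 14, 55854010 to 55874736, plus strand), had 7.63, 3.63 and 8.58 CPM in AFFN1 and 0.432, 0.324 and 0.777 CPM in control. It was 13.1-fold higher (log2 fold change 3.71, SE 0.41, adjusted p = 0.00631). For both genes the lowest AFFN1 library, number 2, lay above the highest control library.

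Cysltr1, a receptor for cysteinyl leukotrienes, had 5.69, 3.79 and 7.44 CPM in AFFN1 and 0.486, 0.377 and 0.657 CPM in control (11.2-fold, adjusted p = 0.0133). Bace1, the beta-secretase that cleaves the amyloid precursor protein, had 9.93, 7.48 and 8.76 CPM against 0.486, 0.971 and 1.31 CPM (9.90-fold, log2 fold change 3.31, SE 0.37, adjusted p = 0.00678). Fbln1, which encodes the matrix glycoprotein fibulin, had 14.1, 7.59 and 7.62 CPM against 3.56, 0.917 and 1.49 CPM (5.34-fold, adjusted p = 0.00690). None of these 3 genes had overlapping groups, and for Fbln1 both group maxima came from number 1. Colq, the collagen-like tail of acetylcholinesterase, had 6.82, 14.5 and 21.6 CPM against 1.08, 5.93 and 6.27 CPM (3.42-fold, adjusted p = 0.0289). Here number 1 was lowest in both groups, and AFFN1 1 still lay above all 3 control libraries.

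Nkg7, a membrane protein of cytotoxic granules, was at 26.2, 15.4 and 34.3 CPM in AFFN1 and at 6.96, 5.50 and 4.48 CPM in control (4.31-fold, log2 fold change 2.11, SE 0.24, adjusted p = 0.00690). It was the called member among 5 tested genes of the 15 markers of NK and innate lymphoid cells (0.317% of all genes tested were called higher). The list median was 1.10 over these 5, of which 4 were positive and 1 negative, from -0.13 to 2.34. The markers' summed level was 31.0, 23.3 and 53.2 CPM in AFFN1, 10.8, 12.6 and 14.9 CPM in control and 24.9 to 27.7 CPM in BN1. Nkg7 was itself most of the AFFN1 sums. What remained of the sums without it overlapped between AFFN1 and control, but was higher in AFFN1 within each number. Ncr1, Klrk1, Gzmb, Tbx21 and Zbtb16 had 0 reads in all 9 libraries. Klrd1 and Klrb1c, receptors of NK cells picked after their values were seen, had log2 fold changes of 1.10 and 2.34 with adjusted p of 0.315 and 0.313. The part of such cells in the rise of Nkg7 was not tested.

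Other rises were Pcdhgb6, Ppp1r32, Chst1 and Ttyh2, of 5.93-, 5.26-, 3.79- and 3.31-fold. Pcdhgb6 belongs to the clustered gamma protocadherins, whose transcripts share exons, so its reads may be split with its neighbours. Ppp1r32, a regulatory subunit of protein phosphatase 1, was at 6.01, 8.56 and 9.48 CPM against 1.83, 1.19 and 1.49 CPM (adjusted p = 0.00719). Chst1, a sulfotransferase of keratan sulfate, was at 11.3, 7.21 and 5.34 CPM against 2.81, 2.26 and 1.25 CPM (adjusted p = 0.00918). Groups did not overlap for these genes other than Ttyh2, whose AFFN1 2 at 2.93 CPM lay under control 1 at 3.18 CPM.

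A few called genes were nearly absent from control and low in AFFN1. Bmpr1a, a type I receptor for bone morphogenetic proteins, had 210 reads in AFFN1 and 9 in control, at 4.89, 2.60 and 4.26 CPM against 0.216, 0.216 and 0.0598 CPM (log2 fold change 4.46, SE 0.54, adjusted p = 0.00692). Mpped2, a metallophosphoesterase, had 198 reads in AFFN1 and 3 in control, a ratio of 66.1 (95% exact interval 22.3 to 323, counting error only). Zcchc18 had 145 reads against 6, but lies within Slc25a53 on the other strand, which was also called at 3.02-fold, and the strand setting of the authors' counting is not given, so reads of the pair cannot be told apart. Of all 65 called genes, 30 overlap an annotated gene on the opposite strand.

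**Figure D3:**
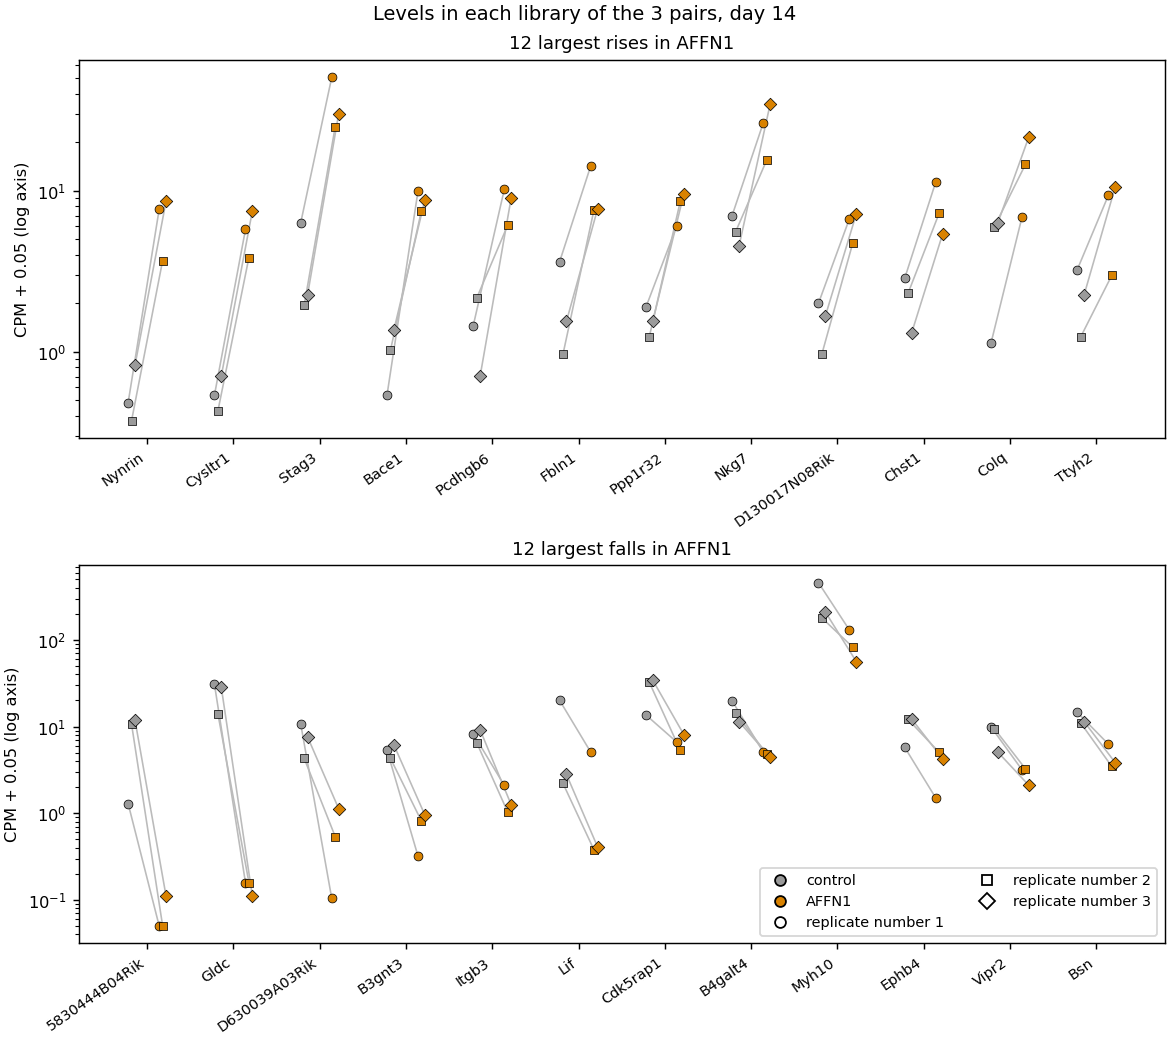
Points give the CPM (with 0.05 added, log axis) of the 12 largest rises (top) and 12 largest falls (bottom) in AFFN1 among called genes with at least 5 CPM in the higher group; grey marks control, orange AFFN1, shapes the replicate number, and lines join libraries of equal number. All lines of the top panel rise and all of the bottom panel fall. By log2 fold change of the gene, not by single lines, the largest falls are those of 5830444B04Rik (-8.12) and Gldc (-7.93).

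Among the falls after Gldc was Itgb3, the beta-3 integrin subunit (mm10 chromosome 11, 104608000 to 104670476, plus strand), which had 2.04, 0.976 and 1.20 CPM in AFFN1 and 8.20, 6.47 and 9.08 CPM in control (5.74-fold lower, log2 fold change -2.52, SE 0.28, adjusted p = 0.00631). It was the called member among 12 tested integrin subunits (0.24% of all genes tested were called lower), and the list median of 0.14 was positive. B3gnt3, an N-acetylglucosaminyltransferase, had 0.268, 0.759 and 0.900 CPM against 5.29, 4.26 and 6.09 CPM (8.48-fold lower, adjusted p = 0.00782). B4galt4, a galactosyltransferase, had 5.05, 4.82 and 4.38 CPM against 19.8, 14.2 and 11.4 CPM (3.13-fold lower, adjusted p = 0.00690). No AFFN1 library of these 3 genes reached a control library.

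Myh10, the heavy chain of nonmuscle myosin IIB, had the highest mean control level of the fallen genes, at 130, 82.1 and 56.1 CPM in AFFN1 and 459, 180 and 211 CPM in control (3.07-fold lower, log2 fold change -1.62, SE 0.24, adjusted p = 0.0370). Cdk5rap1, a modifying enzyme of mitochondrial tRNA, had 6.55, 5.26 and 8.04 CPM against 13.6, 32.4 and 34.3 CPM (3.88-fold lower, adjusted p = 0.0258). Lif, the cytokine leukemia inhibitory factor, had 5.05, 0.325 and 0.360 CPM against 20.1, 2.16 and 2.75 CPM (4.91-fold lower, adjusted p = 0.0493). For Lif the level of both groups was highest in number 1, and AFFN1 1 lay above control 2 and 3. Tnfsf4, the ligand of the costimulatory receptor OX40, had 2 reads in AFFN1 and 104 in control, a control to AFFN1 ratio of 51.9 (95% exact interval 14.0 to 434, counting error only). The uncharacterised transcript 5830444B04Rik had 1 read against 416 (ratio 415, interval 74.2 to 16447), and control 1, at 1.24 CPM, was below control 2 and 3, at 10.6 and 11.8 CPM.

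Receptor genes were also among the 28 lower ones. Ephb4, a receptor tyrosine kinase for ephrin-B ligands, had 1.45, 4.99 and 4.20 CPM in AFFN1 and 5.72, 12.0 and 12.2 CPM in control (2.89-fold lower, adjusted p = 0.0357). Vipr2, a receptor for vasoactive intestinal peptide, had 3.11, 3.20 and 2.04 CPM against 9.88, 9.38 and 5.02 CPM (2.85-fold lower, adjusted p = 0.0162). Ptger4, a prostaglandin E2 receptor, had 25.0, 37.5 and 45.6 CPM against 79.1, 66.7 and 72.2 CPM (2.05-fold lower, adjusted p = 0.0453). In each of the 3 genes the groups were apart. The metallothioneins Mt1 and Mt2, near-identical neighbours 5.51 kb apart on chromosome 8, fell 1.85- and 1.93-fold, and Mt2 had overlapping groups.

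Thy1, a surface glycoprotein of T cells, stromal cells and some progenitors, had 22.8, 21.5 and 25.7 CPM in AFFN1 and 38.7, 44.1 and 50.2 CPM in control (1.90-fold lower, log2 fold change -0.93, SE 0.15, adjusted p = 0.0297). It was the called member among 7 tested T-cell markers, whose summed level was 232 to 259 CPM in AFFN1 and 195 to 273 CPM in control. It was also the called member among 8 tested stromal and endothelial markers, which summed to 152 to 206 CPM in AFFN1 and 113 to 220 CPM in control. Neither sum separated the groups, and 0.24% of all genes tested were called lower.

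Of 20 tested genes of fatty acid oxidation, 2 were called, both lower (0.24% of all genes tested were called lower), and the list median of -0.01 was close to that of all genes. Eci2, an enoyl-CoA isomerase, had 7.36, 13.8 and 10.6 CPM in AFFN1 and 15.7, 25.4 and 29.0 CPM in control (2.21-fold lower, log2 fold change -1.14, SE 0.18, adjusted p = 0.0247). Cpt2, the inner-membrane carnitine palmitoyltransferase, had 8.38, 13.3 and 10.6 CPM against 14.6, 23.8 and 20.3 CPM (1.82-fold lower, log2 fold change -0.86, SE 0.15, adjusted p = 0.0331). Groups did not overlap for either gene. Acss1, a mitochondrial enzyme that makes acetyl-CoA from acetate and is no member of the list, fell 1.61-fold (adjusted p = 0.0258).

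St3gal6, a sialyltransferase, was at 128, 129 and 111 CPM in AFFN1 and 65.6, 75.4 and 50.5 CPM in control (1.94-fold, log2 fold change 0.96, SE 0.11, adjusted p = 0.00690). Smad3, a transducer of TGF-beta signals, was at 65.9, 83.1 and 83.0 CPM against 46.1, 57.5 and 47.0 CPM (1.54-fold, adjusted p = 0.0421). Kdm5b, a demethylase of histone H3 lysine 4, was at 5.69, 8.62 and 27.6 CPM against 2.91, 3.88 and 9.20 CPM (2.41-fold, adjusted p = 0.0322). For Kdm5b and for the linker histone gene H1f0 (1.59-fold, adjusted p = 0.0230), number 3 was highest in both groups and the groups overlapped. St3gal6 and Smad3 are among the rises outside the 12 largest, which were picked for their roles after their values were seen, as were Bmpr1a, Ptger4, Mt1 and Mt2.

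The 42 gene lists for pathways and cell types held 649 genes, of which 517 were tested and 7 called by edgeR (1.35%, against 0.558% of all genes tested), in 7 lists, and 35 lists had no called member. The lists were chosen with earlier results of these data known, so no list count given above or below is an independent test. Members were called in 25 lists with DESeq2, in 17 with the 6 libraries of the comparison alone, in 13 with no filter on low counts, in 24 without number 1 and in 1 without number 3 or without the block. The called members were Nkg7, which was higher, and Gldc, Tyms, Eci2, Cpt2, Itgb3 and Thy1, which were lower. Tyms was also the called member among 23 tested genes of DNA replication, where the median was -0.09. The fixed genes other than Gldc were not called. Hoxa9, a homeobox factor of early progenitors, had 29 reads in AFFN1 and 53 in control (log2 fold change -0.73, SE 0.77, adjusted p = 0.751), and its sign turned without control 1. Hoxa10 had 0 reads in both groups. Meis1, which binds DNA together with Hox proteins, had 18 and 22 reads (log2 fold change -0.26, adjusted p = 0.893). The B-lineage factors Ebf1 and Pax5 had log2 fold changes of 0.06 and 0.19 with adjusted p of 0.888 and 0.537.

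Some of the lists with no member called by edgeR in the 9 libraries leaned one way, and not all of them are detailed here. Among those not detailed, 12 of 14 tested p53 pathway genes had negative log2 fold changes, with a median of -0.34. So did 15 of 17 tested amino acid response genes, with a median of -0.30. Of 20 pro-B and pre-B genes, 17 had positive log2 fold changes, with a median of 0.31 against -0.02 over all genes. DESeq2 called 3 of them higher, beside 168 higher and 125 lower among all 11657 genes tested. Rag1 and Rag2, the recombinase of immunoglobulin genes, had 0.97 (SE 0.28, adjusted p = 0.248) and 0.88 (SE 0.22, adjusted p = 0.153), and Rag1 had 290, 623 and 962 CPM in AFFN1 against 168, 407 and 345 CPM in control. Dntt, the template-free polymerase, was at 111, 372 and 543 CPM against 16.8, 465 and 308 CPM, so control 1 was far below the other libraries (adjusted p = 0.768). Bst1, a surface enzyme of B-cell precursors, had 0.56 (SE 0.12, adjusted p = 0.0825). Il7r, the receptor of interleukin 7, and Kit, the receptor of stem cell factor, had 0.55 (adjusted p = 0.335) and 0.58 (adjusted p = 0.299), and Flt3 and Cd22 had 0.23 and 0.52 (adjusted p = 0.677 and 0.640).

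Of 13 tested chemokines and homing receptors, 12 had positive values, with a median of 0.59. DESeq2 called 3 of them higher and 1 lower (168 and 125 of all 11657 genes tested). Ccl9 was at 31.1, 30.2 and 30.1 CPM in AFFN1 and 17.8, 17.8 and 7.83 CPM in control, without overlap (log2 fold change 1.13, SE 0.22, adjusted p = 0.0724). The opposite lean was seen in 27 genes of the Myc network and ribosome biogenesis, of which 24 had negative values, with a median of -0.36. DESeq2 called 2 of them lower (125 of all 11657 genes tested). Myc was at 370, 168 and 209 CPM against 567, 180 and 334 CPM (log2 fold change -0.46, SE 0.20, adjusted p = 0.408). Its groups overlapped. Nop58, a nucleolar protein, and Srm, spermidine synthase, had -0.57 and -0.76 (adjusted p = 0.186 and 0.283). Rag1, Rag2, Dntt, Bst1, Nop58 and Srm were picked after their values were seen.

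**Figure D4:**
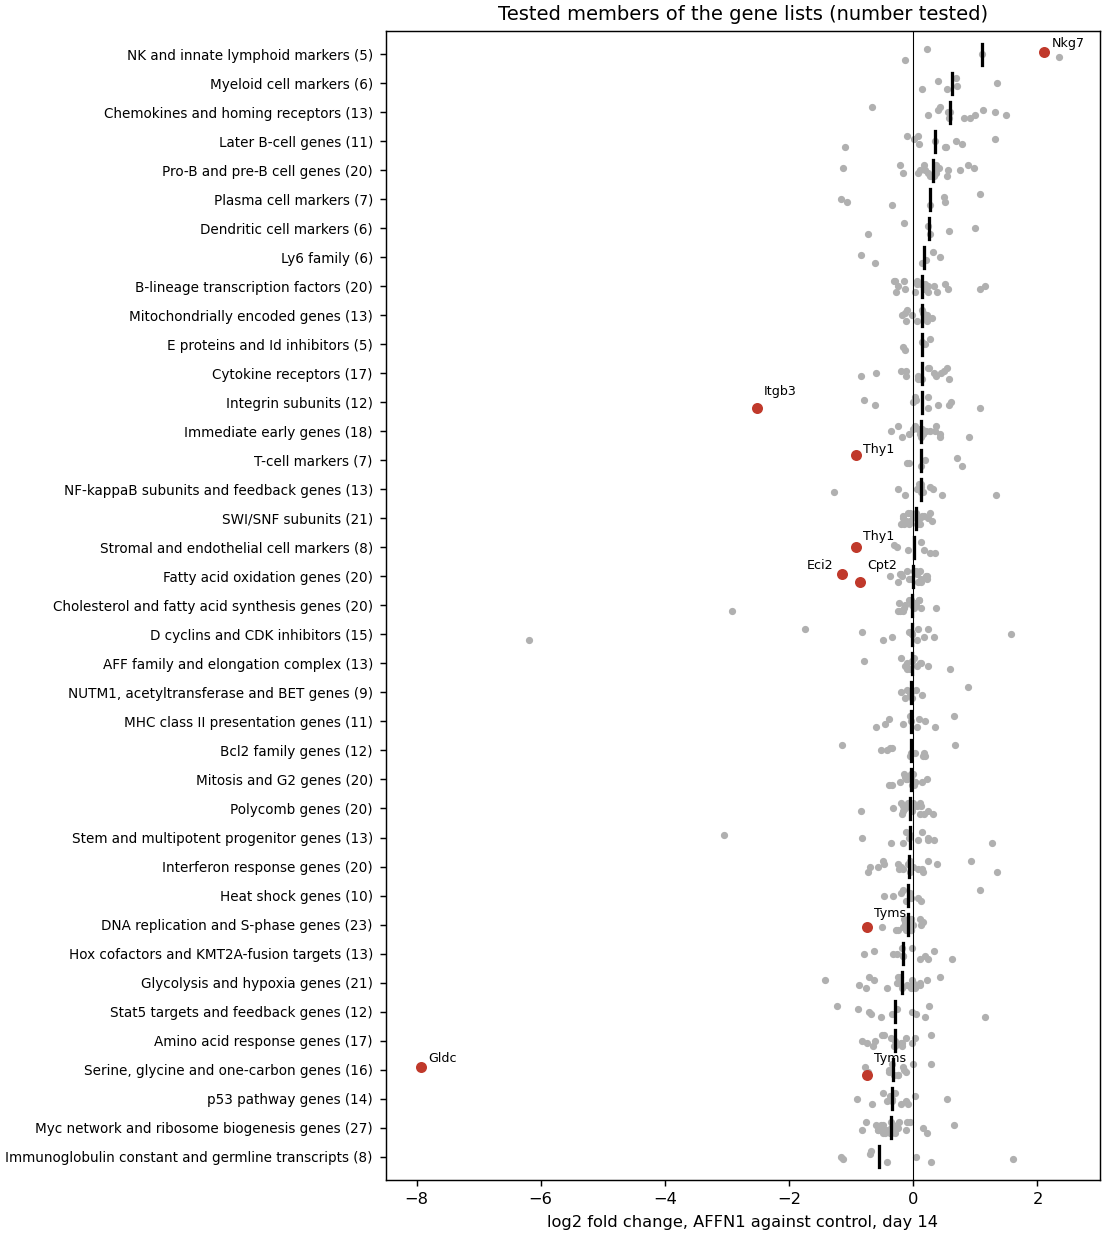
Each point is the log2 fold change of AFFN1 against control on day 14 of 1 tested gene, and each row a list of 5 or more tested genes; red marks called genes, grey the others, and black bars the list medians. Called genes are Nkg7, Itgb3, Thy1, Eci2, Cpt2, Tyms and Gldc, and the grey point at -6.19 is Ccnd1.

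AFFN1 and BN1 cells were also compared on day 14, in the same fit and with the same AFFN1 libraries. Of 11657 genes, 21 were called (0.18%), of which 13 were higher (0.112%) and 8 lower (0.0686%) in AFFN1; without the block 0 genes were called by edgeR (992 at an unadjusted p under 0.05), without number 1 124, without number 2 5 and without number 3 0. Bmpr1a was at 0.108, 0.0542 and 0.217 CPM in the BN1 libraries, below every AFFN1 library (log2 fold change of AFFN1 against BN1 4.87, adjusted p = 0.0231). Fbln1 was at 2.64, 0.921 and 1.79 CPM in BN1 (log2 fold change 2.50, adjusted p = 0.0231), and N4bp3 at 34.1, 41.9 and 38.8 CPM against 52.9, 68.7 and 83.3 CPM in AFFN1 (0.81, adjusted p = 0.0361). Ccl9 went the other way, with 91.4 CPM on average in BN1 (log2 fold change of AFFN1 against BN1 -1.56, adjusted p = 0.0361). For Gldc, Itgb3, Stag3 and Nynrin the difference between AFFN1 and BN1 was not called, at -2.20, -0.78, 1.38 and 0.72 (adjusted p = 0.102, 0.219, 0.206 and 0.311).

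BN1 against control, which shares the control libraries, had 1348 called genes (11.6%) with the block, 577 higher (4.95%) and 771 lower (6.61%), 3 without it, and 594, 143 and 684 without numbers 1, 2 and 3. For Gldc its log2 fold change was -5.73 (adjusted p = 1.85e-05) beside -7.93 in AFFN1, and for Bace1 it was 3.02 (adjusted p = 0.00678) beside 3.31. For Bmpr1a it was -0.41 (adjusted p = 0.749) beside 4.46, and for Fbln1 -0.09 (adjusted p = 0.867) beside 2.42. Ccnd1 was at -6.96 in BN1 (adjusted p = 0.0222) beside -6.19 in AFFN1.

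The same contrast was available in other libraries on day 6, where 1528 of 12068 genes (12.7%) were called, 940 higher (7.79%) and 588 lower (4.87%) in AFFN1, and 289, 401 and 3873 without numbers 1, 2 and 3. The days also differed in sex-linked transcripts: the noncoding RNA Xist was at 233 to 504 CPM in the 9 day 14 libraries and at 0.0560 to 0.263 CPM in the 9 day 6 libraries, and the Y-linked Ddx3y at 0 to 0.0609 CPM and at 79.8 to 120 CPM. Day, sex and experiment cannot be told apart in anything that compares the days. Of the 65 genes called on day 14, 58 were tested on day 6, and 25 were called there in the same direction, 17 higher and 8 lower, which is 38.5% of the day 14 calls and 1.64% of the day 6 calls. N4bp3 and Spint2, an inhibitor of serine proteases, were called in opposite directions, and 49 of the 58 had the same sign.

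Nynrin was at 9.54, 9.42 and 6.84 CPM in AFFN1 and 0.507, 0.366 and 1.24 CPM in control on day 6 (log2 fold change 3.55, adjusted p = 0.00158, beside 3.71 on day 14). Cysltr1 had 3.05 on day 6 beside 3.48, and Stag3 had 2.65 beside 3.38 from a lower level, 0.801 to 1.13 CPM in AFFN1 and 0.0566 to 0.220 CPM in control. Of the lowered genes, Itgb3, Vipr2, Ephb4, Tyms and Acss1 also fell on day 6, with log2 fold changes of -1.64, -1.93, -1.37, -0.36 and -0.55. Spint2 was at 41.1, 34.7 and 45.9 CPM in AFFN1 against 17.1, 21.9 and 24.7 CPM in control on day 14, but at 2.93, 3.16 and 3.08 CPM against 17.2, 16.0 and 21.7 CPM on day 6.

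The change of the AFFN1 effect between the days was called for 360 of 12567 genes (2.86%; 182 positive, 1.45%, and 178 negative, 1.42%), and for 20 of the 65 genes. The 65 were selected by their day 14 difference, which is part of this change, so their share cannot be set against that of all genes. Without the block the count over all genes was 183, and without numbers 1, 2 and 3 of day 14 it was 398, 273 and 174. Gldc was near 0 in both day 6 groups, at 0, 0 and 0.739 CPM in AFFN1 and 0, 0.0733 and 0 CPM in control. Bace1 had 0.70 on day 6 (adjusted p = 0.206) and Fbln1 -0.65 (adjusted p = 0.0954), and their changes between days of 2.62 and 3.06 were called (adjusted p = 0.0102 and 0.00013). Hoxa9 had 5.88 on day 6 (adjusted p = 2.73e-05) beside -0.73 on day 14, a change of -6.64 (adjusted p = 0.000995), and Meis1 had 2.71 (adjusted p = 0.000303) beside -0.26, a change of -2.97 (adjusted p = 0.0124). For Ccnd1 the day 6 value was -0.91 (adjusted p = 0.125) and the change -5.28 (adjusted p = 0.00916).

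**Figure D5:**
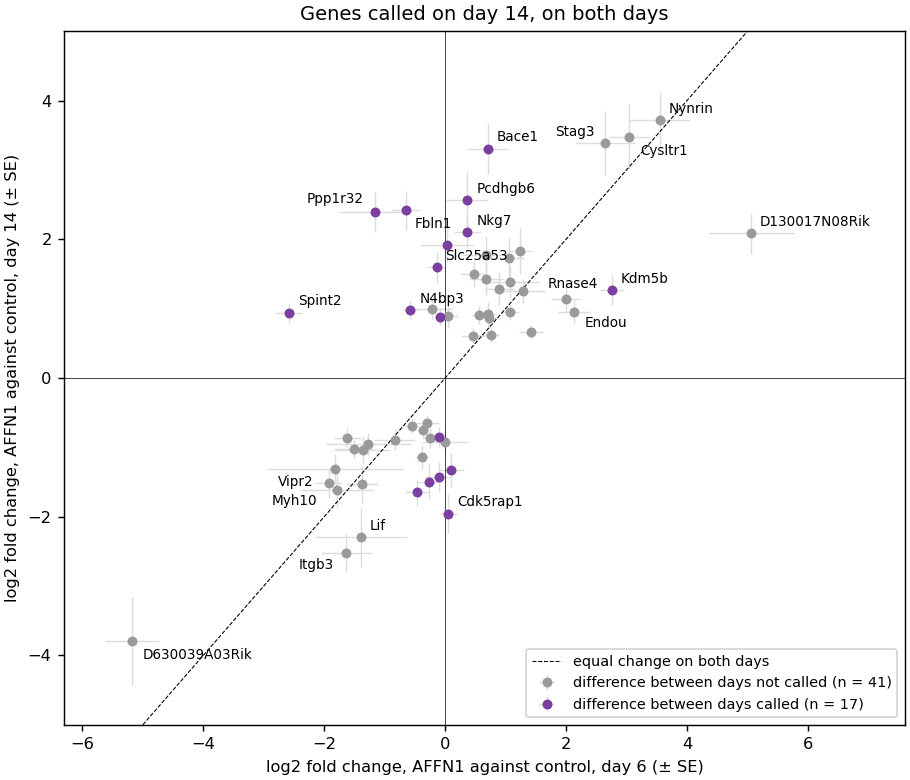
Points are the 58 called genes that were tested on both days, with the log2 fold change of AFFN1 against control on day 6 on the x axis and on day 14 on the y axis, bars of 1 SE and a dashed line for equal changes; purple marks the 17 whose change between days was called and grey the other 41. Nynrin, Stag3 and Cysltr1 lie near the line, and Spint2 and N4bp3 lie on opposite sides of 0 on the 2 days.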

How the data were processed

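RNA-seq of 18 mouse libraries was used, 6 of them in the main contrast and 9 in its fit. The deposited table holds expected counts per gene, made by the authors with STAR and RSEM on mm10, per the submitters' processing notes, which also name DESeq2. No version, gene annotation or strand setting of the counting is given in the sources used here; per the labels, the kit keeps the strand of the RNA. In a library 1.91 to 2.12% of values were not whole, and expected counts were rounded.

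Genes were filtered with filterByExpr and libraries scaled by TMM. Groups were compared by edgeR 4.0.16 (R 4.3.3), quasi-likelihood test with robust estimation, on the 9 day 14 libraries with the replicate number as a block (4 residual degrees of freedom), with two-sided p-values and Benjamini-Hochberg adjustment over all genes tested. SE is the log2 fold change divided by the root of F. Day 6 was fitted on its own 9 libraries, and the change between days on all 18. Alternatives used DESeq2 1.42.0, limma 3.58.1 voom, other scaling and filters, no block, and each library left out. The procedure was tested on simulated data.

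Equal numbers share a code in the descriptions, and deviations from the group means correlated at 0.291 to 0.614 within numbers and at -0.503 to 0.0141 between numbers, so the numbers were taken as pairs. Deviations cancel within a group, so positive values within numbers by themselves push those between numbers down. Replicates differed by more than counting noise (chi-square per degree of freedom 53.4 to 122).

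Named were the 12 largest rises and falls among called genes that reached 5 CPM in the mean of the higher group and moved one way in all 3 pairs, fixed genes, up to 6 called members of a list and the 5 smallest p in each direction. Genes, lists and rules were chosen with earlier results of these data known. Coordinates are from GENCODE M21 (99.8% of identifiers found), and promoters from RefSeq GRCm38.p6, matched by symbol. Exact intervals are at 95%.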

Additional observations from a re-analysis of the deposited data

Results flagged for a closer look

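The AFFN1 effect differed between day 14 and day 6 in 360 of 12567 genes by edgeR's test of the difference itself, an interaction term over all 18 libraries; day, sex and experiment cannot be told apart here. The values below are the day 14 minus the day 6 log2 fold change. Among genes higher in AFFN1 on day 14 they were 2.62 for Bace1, 2.22 for Pcdhgb6, 3.06 for Fbln1, 3.58 for Ppp1r32, 1.75 for Nkg7, 1.90 for Chst1 and 7.07 for Mpped2, which had at most 0.220 CPM in any day 6 library. Among lower genes they were -11.04 for Gldc, -3.93 for B3gnt3, -2.0 for Cdk5rap1, -1.17 for B4galt4 and -1.22 for Bsn, a presynaptic scaffold. Gldc and B3gnt3 were at or under 0.739 and 0.358 CPM in all day 6 libraries of AFFN1 and control, so their values rest on few reads. Among genes not called on day 14 they were -6.64 for Hoxa9, -2.97 for Meis1 and -1.60 for Flt3, a receptor of early progenitors.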

How the results depend on the processing

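The count of genes called between AFFN1 and control on day 14 was 65. It was 5 without the replicate block, 137 with no filter on low counts and 293 with DESeq2 (226 genes without an adjusted p), and 63 to 88 with other scaling, a stricter filter, limma-voom, non-robust estimation or the 6 libraries alone. Of the 88 genes called with the 6 libraries alone, 54 were among the 65. Leaving out libraries gave 1 to 263. Of 65 genes, 65 kept their sign in all 17 settings and 1, Gldc, kept its call in all. For AFFN1 against BN1 the count of 21 became 0 without the replicate block (992 at an unadjusted p under 0.05) and 0 to 124 with a number left out. For BN1 against control 1348 became 3 without the block and 143 to 684 with a number left out. The change between days, 360, became 183 without the block and 174 to 398 with a number left out. On day 6, 1528 became 1347 with the replicate block and 289 to 3873 with a number left out. The causes were not tested, other than that fewer libraries entered the last kind of fit. Uncalled genes near 0 changed sign when a library or number was left out: the log2 fold changes then ran from -0.13 to 0.064 for Aff1 (positive without number 3, AFFN1 3 or control 3), from -0.11 to 0.22 for Brd9 (negative without number 1, AFFN1 1 or control 1), from -1.65 to 0.58 for Hoxa9 (positive without number 1 or control 1), from -0.63 to 0.083 for Meis1 (positive without control 1) and from -0.037 to 0.17 for Ebf1 (negative without number 3 or AFFN1 3). Where a group lost a library, the remaining ones were assumed to vary like the other groups. A count of 0 reads over the 3 libraries of a group allows a level of up to 0.0558 CPM.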

Other observations

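Besides Ccnd1, 6 genes had groups that did not overlap, a log2 fold change over 1.5 in size and a mean over 15 CPM in the higher group without being called by edgeR. This choice was made after seeing the data, and the lack of overlap was part of it. Of all 11657 genes tested, 1110 (9.52%) had groups that did not overlap. Scd1, a desaturase that makes monounsaturated fatty acids, was at 1.56, 18.2 and 11.7 CPM in AFFN1 and 47.1, 86.6 and 67.6 CPM in control (log2 fold change -2.91, SE 0.54, adjusted p = 0.138), with an adjusted p of 3.31e-08 without number 1 and 0.703 without number 3. Siglecg, an inhibitory receptor of B cells, was at 35.7, 44.7 and 55.5 CPM in AFFN1 and 11.5, 13.1 and 23.3 CPM in control (1.53, SE 0.32, adjusted p = 0.127). Grb7, an adaptor of receptor tyrosine kinases, was at 19.6, 17.2 and 36.5 CPM against 2.27, 13.5 and 7.83 CPM (1.79, adjusted p = 0.276). Kirrel, an adhesion protein of the immunoglobulin superfamily, was at 6.93, 9.43 and 9.72 CPM against 56.0, 20.9 and 30.4 CPM (-1.87, adjusted p = 0.188). Hmgn3, a nucleosome-binding protein, and Zc3h11a, whose name 2 genes of the table share, had log2 fold changes of -1.77 and -2.47 (adjusted p = 0.390 and 0.373).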
